A study of Mus musculus with 4 samples.

Results

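The regions described here are places in the mouse genome where Tal1 and Gata2 tags were dense and Ldb1 tags were moderately dense. They were found in a chromatin immunoprecipitation and sequencing study of bone marrow progenitor cells. Tags counted once per position were assigned to 500 bp bins of chromosomes 1 to 19. Bins were chosen by these counts alone: one was kept when it held 8 to 19 Ldb1 tags, at least 14 Tal1 tags, at least 11 Gata2 tags and at most 3 IgG tags, and adjacent kept bins were joined. This gave 2996 kept bins, or 0.0697% of the 4299458 bins with a tag in any library, and these formed 2815 regions. Since the tag counts chose the regions, those counts are given as a description without a test.

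The study compared 4 antibodies on fresh mouse bone marrow progenitors, enriched by taking out lineage-positive (Lin+) cells on magnetic beads, and asked what Ldb1 does in maintaining haematopoietic stem cells. A single library each was made with anti-Ldb1, anti-Scl/Tal1, anti-Gata2 and control IgG, all from formaldehyde-crosslinked, sonicated chromatin. No genotype, treatment, strain, sex or age differs between the libraries in the labels, and how many animals were pooled is not given in the sources used here. Expression was not measured, so the cell type could not be checked against markers, and Lin- marrow is a mixture of progenitors. With 1 library per antibody there is no replicate: every interval is a 95% exact interval that covers counting error alone, and repeated PCR copies and neighbouring bins are not independent.

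Ldb1 does not bind DNA itself. It dimerises and, through LIM-only proteins such as Lmo2, joins DNA-bound factors into larger complexes and can bring distant sites together. Tal1, a basic helix-loop-helix factor, binds E-box sequences as a dimer with E proteins such as Tcf3, and Gata2, a zinc finger factor, binds GATA sequences; both are needed for blood stem and progenitor cells. A site with all 3 proteins is the classical form of the Ldb1 complex in blood cells. All positions are in mouse build mm8. Genes, exons and introns were not assigned to them, and sequences were not examined, because no mm8 genome or annotation was used here.

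The libraries differed in depth and in tag length. On chromosomes 1 to 19 there were 3866477 Ldb1, 8701045 Tal1, 5785973 Gata2 and 3401045 IgG positions. These gave means of 0.899, 2.02, 1.35 and 0.791 tags per bin, taken over the 2149.7 Mb of bins with a tag. The kept bins held 0.907% of all Ldb1, 1.18% of Tal1 and 0.954% of Gata2 positions, and 0.0890% of IgG positions. The Tal1 tags had a length of 36 bp and the other tags 25 bp, so repeats are not equally accessible to all of them.

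Moderate Ldb1 bins were part of a continuous range and not a separate group. Of the 7689 bins (0.179% of bins with a tag) that met the limits for Tal1, Gata2 and IgG, 38.96% held 8 to 19 Ldb1 tags, where 0.243% of all bins with a tag did. A further 3700 held under 8 Ldb1 tags and 993 held at least 20 (0.0534% of all bins with a tag). The number of bins was highest at 5 Ldb1 tags, with 643 bins, and declined across both limits without a gap. There were 577 bins at 7 tags just outside and 507 at 8 tags just inside, and 76 bins at 19 tags inside and 71 at 20 tags outside. The other limits also cut through dense ranges: 121 further bins had 13 Tal1 tags (108 had 14), 381 had 10 Gata2 tags (358 had 11) and 103 had 4 IgG tags (260 had 3).

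Single limits were met by 0.243% (Ldb1 8 to 19), 0.651% (Tal1) and 0.358% (Gata2) of bins with a tag. Within the kept bins the lowest, median and highest number of Ldb1 tags was 8, 11 and 19. For Tal1 these were 14, 26 and 186 tags, and for Gata2 they were 11, 16 and 138. IgG ranged from 0 to 3 with a median of 1, and 1099 kept bins had no IgG tag, a count that allows up to 3 tags. Relative to the mean over bins with a tag, the median bin held 12.2 times as much Ldb1, 12.8 times as much Tal1 and 11.9 times as much Gata2. The typical member was therefore enriched to a like degree for all 3 proteins at a level set by the limits. IgG stood at 1.28 times its own mean over the kept bins despite its upper limit, against 1.01 times in bins with at least 20 Ldb1 tags and 1.22 times in bins with under 8.

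Bins with more Ldb1 tags had more Tal1 tags and few more Gata2 tags. The median Tal1 number was 23 in bins with 8 Ldb1 tags, 26 in bins with 12 and 38 in bins with 19, while the median for Gata2 was 15, 15.5 and 17.5. Over all bins beyond the upper limit (at least 20 Ldb1 tags) the medians were 98 Tal1 and 19 Gata2 tags, against 26 and 16 in the moderate bins. Across the 2815 regions, the log2 tag numbers of Ldb1 and Tal1 correlated at 0.30 (Spearman's rho 0.28), those of Ldb1 and Gata2 at 0.13 (rho 0.10) and those of Tal1 and Gata2 at 0.29 (rho 0.23). These values describe regions of a narrow Ldb1 range in the same libraries, and the limits themselves reduce them.

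**Figure D1:**
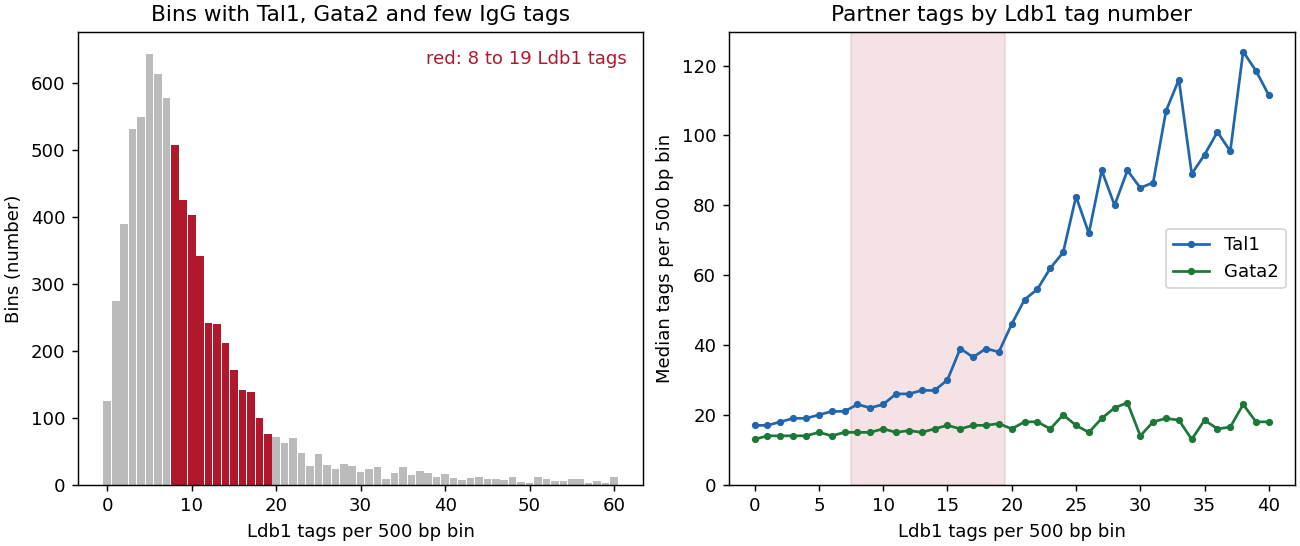
Left, number of 500 bp bins that met the Tal1, Gata2 and IgG limits by their number of Ldb1 tags, shown up to 60 tags (202 bins lay beyond), with 8 to 19 tags in red. Right, median Tal1 (blue) and Gata2 (green) tags in the same bins by Ldb1 tag number up to 40, with 8 to 19 shaded; Tal1 goes from 23 at 8 Ldb1 tags to 38 at 19 and Gata2 from 15 to 17.5.

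The members differed in which protein was most enriched over its own mean. Tal1 led in 1189 regions (42.2%), Gata2 in 826 (29.3%) and Ldb1 in 800 (28.4%). The regions with the same Tal1, Gata2 and IgG limits but at least 20 Ldb1 tags, 926 in number, had Tal1 in the lead in 52.3%, Ldb1 in 44.7% and Gata2 in 3.02%. Among the 3478 regions with under 8 Ldb1 tags, Gata2 led in 63.3% and Tal1 in 36.7%. The limits on Ldb1 set much of this order. In the low class no region could be led by Ldb1, since the Ldb1 limit lies below the lowest Gata2 enrichment the rule allows, so these shares only describe the 3 classes.

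Regions led by Tal1 had a median of 44 Tal1 and 15 Gata2 tags, and their Tal1 count reached 183. Regions led by Gata2 had a median of 21 Tal1 and 20 Gata2 tags. Regions led by Ldb1 had a median of 13 Ldb1, 20 Tal1 and 13 Gata2 tags. Their highest counts were 41 Tal1 and 26 Gata2 tags, close to the most that the upper limit on Ldb1 allows in a region led by Ldb1.

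**Figure D2:**
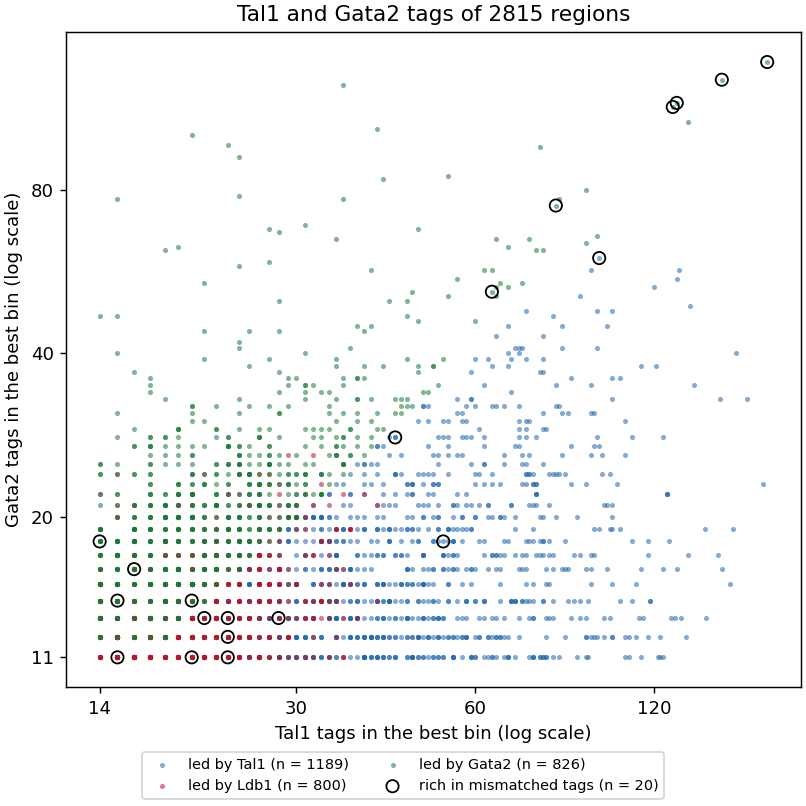
Tal1 against Gata2 tags in the best bin of each of the 2815 regions, both on log scales, coloured by the protein with the highest enrichment over its mean (Tal1 in 1189, Gata2 in 826, Ldb1 in 800 regions). Open circles mark the 20 regions in which under 75% of Tal1 and Gata2 tags aligned without a mismatch; 5 of them lie at the upper right, where both counts are at least 75.

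The 5 members with most Tal1 tags in a kept bin were named by rule. In chr2:22441001-22441500 there were 186 Tal1, 138 Gata2, 17 Ldb1 and 2 IgG tags. It lay beside a denser stretch, since its adjacent bins held up to 39 Ldb1, 268 Tal1 and 236 Gata2 tags. In chr12:106161001-106161500 there were 183 Tal1, 23 Gata2, 16 Ldb1 and 1 IgG tags. This second region stood alone, since neither adjacent bin held over 8 Tal1 or 2 Ldb1 tags. The bin at chr4:88515001-88515500 held 172 Tal1, 33 Gata2 and 17 Ldb1 tags, and chr9:66093001-66093500 held 165, 40 and 18; IgG had 0 tags in both, which allows up to 3. At chr1:135139501-135140000 the counts were 163 Tal1, 19 Gata2, 15 Ldb1 and 3 IgG. Apart from the region on chromosome 2, these are places of very dense Tal1 (80.5 to 90.4 times its mean) with Ldb1 at 16.7 to 20.02 times and Gata2 at 14.1 to 29.7 times their means.

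The members with most Gata2 tags fell into a pair of forms. At chr10:127907501-127908000 Gata2 had 125 tags, or 92.9 times its mean, where Ldb1 had 8, Tal1 36 and IgG 2. Its Tal1 and Gata2 tags aligned without a mismatch in 96.7% of cases. The other 4 had dense Tal1 as well and many mismatched tags. These were the chromosome 2 region named above, chr13:85600001-85600500 (128 Gata2, 156 Tal1, 15 Ldb1, 1 IgG), chr10:95507001-95507500 (116, 131, 19 and 0) and chr4:79476001-79476500 (114, 129, 15 and 0). In them 59.7%, 44.04%, 55.3% and 28.3% of Tal1 and Gata2 tags had no mismatch. The chromosome 4 region, like that on chromosome 2, touched a bin with at least 20 Ldb1 tags. Its adjacent bins held up to 23 Ldb1, 124 Tal1 and 94 Gata2 tags. The regions chr13:85600001-85600500 and chr10:95507001-95507500 touched no such bin.

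Mismatches were not used to choose the members, and over the members as a whole they were near the level of the libraries. Tags without a mismatch made up 75.6% of Ldb1 tags in the regions (75.3 to 75.99) against 74.97% on chromosomes 1 to 19. For Tal1 the share was 89.7% (89.6 to 89.9) against 90.9%, and for Gata2 94.4% (94.2 to 94.6) against 95.2%. The pooled Tal1 and Gata2 shares were thus lower in the members by more than counting error, and the Ldb1 share was higher. A limit of 75% set after these values were seen separated 20 regions (0.710%) rich in mismatched Tal1 and Gata2 tags. These regions are included in the pooled shares, and how much of the lower shares they made up was not tested. Of the 9 members with at least 75 tags of both Tal1 and Gata2, 5 were among them, and of the 33 with at least 50 of both, 7 were.

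In most of those 20 regions the 2 strands were also less displaced. In a bound fragment, forward tags lie to the left of reverse tags by about the fragment length. Median displacement of the Tal1 strands was 62.5 bp in the 20 regions and 114 bp in the other 2795, and for Gata2 it was 50 bp and 111.5 bp. The Tal1 value was below 114 bp in 14 of the 20, at 114 bp in 1 and above it in 5, and ran from -60 to 273.5 bp. For Gata2, 15 of the 19 with a value were below 111.5 bp and 4 were above. There were 3 pairs of them at most 10 kb apart, at chr1:87422501-87423000 with chr1:87423501-87424000, at chr2:22441001-22441500 with chr2:22442001-22442500 and at chr4:79474501-79475000 with chr4:79476001-79476500. At the second of each pair, 55.3%, 11.5% and 28.3% of Tal1 and Gata2 tags had no mismatch. The part of repeated sequence in these counts was not tested. Leaving out the 20 regions left the medians of 26 Tal1 and 16 Gata2 tags per bin as they were.

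The members most enriched for the least enriched of the 3 proteins were also named by rule. The first was the mismatch-rich chr10:95507001-95507500 and the next chr2:22442001-22442500, with 19 Ldb1, 82 Tal1, 75 Gata2 and 0 IgG tags. The other 3 had mostly matching tags (87.7 to 95.9% without a mismatch). These were chr7:28091501-28092500, whose best bin held 19 Ldb1, 94 Tal1 and 57 Gata2 tags, chr12:16211001-16211500 with 19, 102 and 36, and chr8:126684001-126684500 with 19, 94 and 35. IgG had no tag in any of the 3, and all were at the upper Ldb1 limit. They are members in which all 3 proteins were at least 21.1 times their means.

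At the other end, chr11:69654001-69654500 and chr11:101241001-101241500 each held 8 Ldb1, 14 Tal1, 11 Gata2 and 0 IgG tags, exactly at the 3 lower limits. A bin of chr1:133354501-133355500 held 8, 15, 11 and 0. In both chromosome 11 regions the loss of a single Ldb1, Tal1 or Gata2 tag would end membership. The chromosome 1 region has a second kept bin and would remain.

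Most members were short. A single bin made up 2645 regions (93.96%), 161 had 2 bins, 7 had 3 and 2 had 4 bins, or 2000 bp. The longest, chr6:66965501-66967500, changed its balance along its length. From its first to its last bin Tal1 had 55, 47, 20 and 26 tags while Gata2 had 12, 15, 31 and 28, and Ldb1 stayed at 8, 14, 8 and 9. In chr5:22944501-22946500 Tal1 had 33, 18, 14 and 25 tags and Gata2 had 24, 19, 32 and 19. The 3-bin regions chr18:34980501-34982000 and chr6:120880001-120881500 were dense in Tal1 at their first bin (123 and 118 tags), with 11 to 15 Gata2 tags in every bin. In chr10:20001501-20003000 the middle bin had fewer Ldb1 tags (9, between 19 and 18) and more Gata2 tags (24, between 13 and 15).

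Tag density outside the kept bins was not part of the rule. Tags of all 3 proteins were denser than average for at least 5 kb on both sides. From 1 to 5 kb from the centre of the best bin, Tal1 density was 2.15 times its mean (2.14 to 2.16), that of Gata2 1.76 times (1.75 to 1.77) and that of Ldb1 1.63 times (1.62 to 1.64). IgG was at 0.963 times (0.953 to 0.973). Tags in flanks shared by nearby members were counted once for each member, which makes these intervals somewhat too narrow. Relative to IgG, the flanks were enriched 2.24-fold in Tal1 (2.21 to 2.26), 1.83-fold in Gata2 (1.80 to 1.85) and 1.69-fold in Ldb1 (1.67 to 1.71). The rule chose bins with many factor tags and at most 3 IgG tags. How far this choice raised the factors or lowered IgG in the flanks was not tested.

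The density fell with distance. For Tal1 it was 7.46 times the mean at 250 to 500 bp, 3.97 times at 500 to 1000 bp, 2.66 times at 1 to 2 kb and 1.80 times at 4 to 5 kb (1.78 to 1.82). Ldb1 was at 5.90, 2.89, 1.91 and 1.41 times its mean over the same steps, and Gata2 at 6.14, 3.31, 2.19 and 1.49 times. IgG was at 1.25 times its mean at 250 to 500 bp (1.20 to 1.30) and at 0.924 times at 4 to 5 kb, so the control was also slightly raised close to the regions. How much of the nearby factor density this background made up was not tested.

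**Figure D3:**
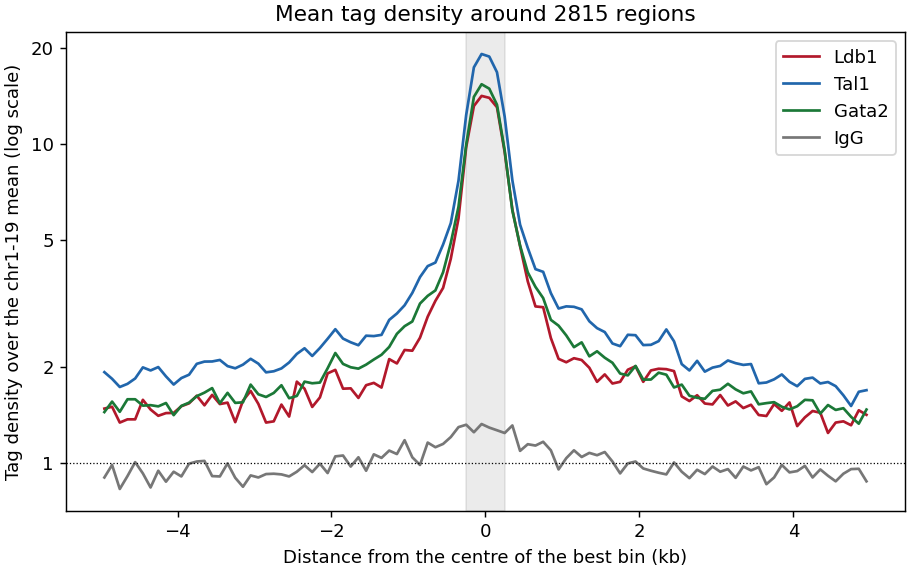
Mean density of Ldb1, Tal1, Gata2 and IgG tags in 100 bp steps around the centre of the best bin of 2815 regions, relative to the mean of each library (dotted line) on a log scale; the shaded 500 bp are the bin used by the rule. At 4 to 5 kb the 3 factors remain at 1.41 to 1.80 times their means and IgG is at 0.924 times.

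Part of this flank density lay around other kept bins. No other bin meeting the Tal1, Gata2 and IgG limits lay within 10 kb of 1870 members (66.4%, 64.7 to 68.2). At these isolated members Tal1 flank density was 1.68 times its mean (1.67 to 1.69), that of Gata2 1.41 times (1.40 to 1.42) and that of Ldb1 1.31 times (1.29 to 1.32). IgG was at 0.963 times, as over all members. Isolated members have no such dense bin in their flanks by definition, so factor values lower than over all members were built into this choice. The factor values were still above IgG by more than counting error. Relative to IgG they were 1.36-fold enriched in Ldb1, 1.74-fold in Tal1 and 1.47-fold in Gata2.

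Flank density followed the Ldb1 class for the 3 factors. Regions of strong Ldb1 (at least 20 tags) had 1.30 times the Ldb1 flank density of the moderate ones (1.29 to 1.32), 1.22 times the Tal1 density (1.21 to 1.23) and 1.14 times the Gata2 density (1.13 to 1.15). IgG went the other way, at 0.941 times (0.920 to 0.961). The moderate regions in turn had 1.08 times the Ldb1 (1.07 to 1.09), 1.09 times the Tal1 (1.08 to 1.10) and 1.02 times the Gata2 flank density (1.01 to 1.03) of the low ones (under 8 tags), with IgG at 1.02 times (1.00 to 1.03). The Gata2 step between low and moderate was close to that of IgG, and their intervals overlapped.

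Among isolated regions alone, strong exceeded moderate by 1.24 times for Ldb1 (1.21 to 1.26), 1.17 times for Tal1 (1.16 to 1.19) and 1.04 times for Gata2 (1.02 to 1.05). IgG was at 0.941 times (0.915 to 0.968). Moderate exceeded low by 1.09 times for Ldb1 (1.07 to 1.10), 1.12 times for Tal1 (1.11 to 1.13) and 1.03 times for Gata2 (1.02 to 1.04). For IgG this ratio was also 1.03 (1.02 to 1.05), so the Gata2 step was no larger than that of the control. Within the moderate range, over all members and not only the isolated ones, the densities also differed at its ends. A strong bin lay within 10 kb of 15% of members with 16 to 19 Ldb1 tags and of 7.69% of those with 8 or 9. Its part in the following ratios was not tested. Members with 16 to 19 Ldb1 tags had 1.15 times the Ldb1 (1.12 to 1.18), 1.13 times the Tal1 (1.12 to 1.15) and 1.18 times the Gata2 flank density (1.16 to 1.20) of those with 8 or 9. IgG was at 1.01 times (0.979 to 1.05). The rise was not even, since members with 10 to 12 Ldb1 tags had a lower Ldb1 flank density (1.51 times the mean) than those with 8 or 9 (1.56 times).

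**Figure D4:**
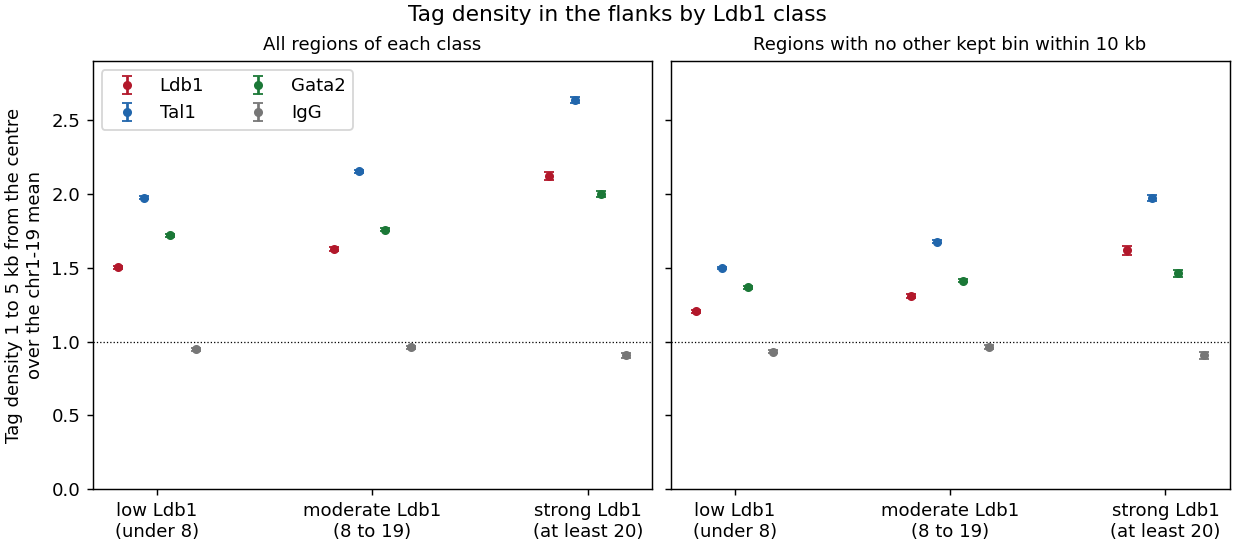
Tag density 1 to 5 kb from the centre relative to the mean of each library (dotted line) for regions of low, moderate and strong Ldb1, over all regions (left) and over those with no other kept bin within 10 kb (right). Points are pooled values and bars 95% exact Poisson intervals; moderate regions lie between the other classes for Ldb1 (1.63 times), Tal1 (2.15) and Gata2 (1.76), and IgG lies below 1.

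Few moderate members touched a bin of strong Ldb1, a measure that does not count dense Ldb1 split between bins. A bin with at least 20 Ldb1 tags touched 122 regions, or 4.33% (3.61 to 5.15), where 0.104% of all bins with a tag touched one. In regions of low Ldb1 this share was 2.42% (1.93 to 2.98) and in strong ones it was 6.26% (4.79 to 8.02). With repeated tags counted as deposited it was 9.31% of 3976 regions. Most adjacent bins fell far from membership: of 5630, 69.6% missed 3 limits and 16.7% missed 2. Ldb1 below 8 was the single missed limit in 306 of them, Gata2 below 11 in 230, Ldb1 above 19 in 99 and Tal1 below 14 in 53.

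Placement of the bins decided many memberships. Tal1 summits, the positions with most Tal1 tags within 50 bp, lay outside the 500 bp of the best bin in 365 regions (12.97%). When Ldb1 was counted anew in 500 bp around the Tal1 summit, 2275 regions (80.8%) kept 8 to 19 tags, 311 (11.05%) had under 8 and 229 (8.13%) had at least 20, with up to 151. Conversely, 602 of the 3478 low regions came to 8 to 19 Ldb1 tags when counted in this way, and 54 of the 926 strong ones did. With bins starting at position 250 there were 2834 regions, and 1615 of the 2815 members (57.4%) overlapped one of them. The number of regions was thus stable to the placement of bins, and the membership of single regions was much less so.

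The summits of the 3 proteins lay close together. Each summit was sought within 400 bp on either side of the bin centre, so long distances could not appear. Ldb1 and Tal1 summits were a median of 50 bp apart (47 to 54), Tal1 and Gata2 summits 53 bp (49 to 55) and Ldb1 and Gata2 summits 66 bp (62 to 70). The rule also asks for many tags of the 3 proteins in the same 500 bp, which draws their summits together. It allows at most 3 IgG tags there, so an IgG summit rests on few tags and is not a matched background. IgG tags placed in the same way lay a median of 188 bp from the Tal1 summit (179 to 196) in the 2312 regions with an IgG tag. Ldb1 and Tal1 were within 50 bp in 50.1% of regions, and IgG and Tal1 in 13.5%.

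Distances between Ldb1 and Tal1 summits were shorter in the classes with more Ldb1 tags. In strong regions the medians were 17 bp for Ldb1 and Tal1 (16 to 19), 23 bp for Tal1 and Gata2 (21 to 26) and 27 bp for Ldb1 and Gata2 (24 to 28). In low regions the median between Ldb1 and Tal1 was 78 bp (74 to 83), while that between Tal1 and Gata2 was 53 bp (50 to 56), as in the moderate ones. Among the moderate regions, the median between Ldb1 and Tal1 was 61 bp with 8 or 9 Ldb1 tags and 37 bp with 16 to 19. Led by Tal1 they had a median of 31 bp, led by Gata2 60 bp and led by Ldb1 85 bp. Here distance did not follow the Ldb1 number, since the median Ldb1 count was 11, 10 and 13 in the same order. The median Tal1 count, at 44, 21 and 20, fell as the distance rose. The tag number at a summit sets how well it can be placed, and its part in these differences was not tested.

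**Figure D5:**
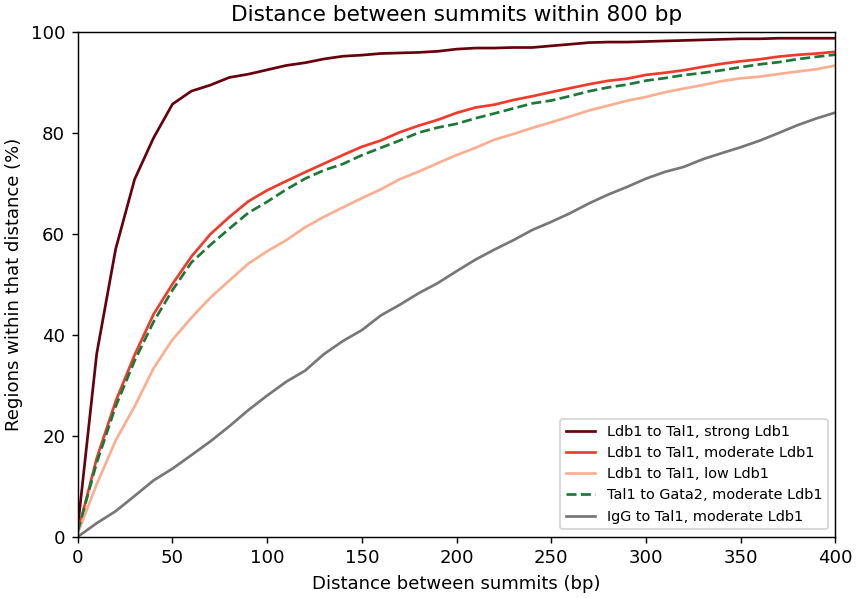
Share of regions (percent) whose summits lie within a given distance (bp), for Ldb1 and Tal1 in regions of strong, moderate and low Ldb1, and for Tal1 with Gata2 and IgG with Tal1 in the moderate regions. Within 50 bp lie 85.7%, 50.1% and 39.1% of Ldb1 and Tal1 summits in the 3 classes, and 13.5% of IgG and Tal1 summits.

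The position along chromosomes was likewise not part of the rule. Another kept bin with at least 8 Ldb1 tags lay within 10 kb of 502 members, or 17.8% (16.4 to 19.3), where 3.19% of all bins with a tag had such a neighbour. The share was higher in both other classes, at 29.2% of strong regions (26.2 to 32.2) and 23.3% of low ones (21.9 to 24.7). A strong bin lay within 10 kb of 244 members (8.67%, 7.65 to 9.77), where 0.848% of all bins had one. Another moderate bin lay near 328 members (11.7%, 10.5 to 12.9), against 2.53% of all bins, 24.4% of strong regions and 19.1% of low ones. A low bin lay near 617 members (21.9%, 20.4 to 23.5), against 3.04% of all bins, 22.6% of strong regions and 16.6% of low ones. Adjacent bins of the same class are joined into 1 region and those of another class are not, which lowers the share for neighbours of a region's own class. Members with 16 to 19 Ldb1 tags had a strong bin within 10 kb in 15% of cases (11.8 to 18.7), against 7.69% (6.01 to 9.67) of those with 8 or 9. Low regions had one in 6.81% (5.999 to 7.70) and strong regions had another in 8.75% (7.01 to 10.8). With at least 1 IgG tag required in each kept bin, 11.6% of members had another kept bin with at least 8 Ldb1 tags within 10 kb.

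Typical members were far apart. The median gap to the next member on a chromosome was 226000 bp, and 171 of 2796 gaps (6.12%) were at most 10 kb. By gaps of at most 10 kb, 2487 members stood alone, 144 runs held 2 members, 12 held 3 and 1 held 4. The run of 4, chr8:124456501-124476500, had 14, 14, 8 and 10 Ldb1 tags with 18, 15, 25 and 24 Tal1 and 13, 14, 14 and 15 Gata2 tags. Its Gata2 counts were below the class median of 16, and its Tal1 counts were at most 25, under the class median of 26. A run of 3 at chr4:133766501-133778500 had 100, 49 and 95 Tal1 tags with 15, 19 and 12 Ldb1 tags. A further run of 3 at chr7:28081501-28092500 ended in the region described above, whose best bin held 57 Gata2 tags, and held 6 low bins in addition.

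Members were not spread evenly over chromosomes. There were 13.1 per 10 Mb of bins with a tag (12.6 to 13.6). Chromosome 19 had 24.1 per 10 Mb (20.1 to 28.6), chromosome 11 had 23.0 (20.2 to 25.98) and chromosome 17 had 18.8 (15.9 to 21.97), and the intervals of all 3 lay above the mean. Chromosomes 3 (8.34, 6.90 to 9.99), 14 (8.58, 6.89 to 10.6) and 1 (9.11, 7.75 to 10.7) were lowest. IgG density was at 0.972, 0.953 and 0.967 times its mean on chromosomes 19, 11 and 17 and at 1.03 to 1.06 times on 1, 3 and 14. The 255 members of chromosome 11 were the most on any chromosome. Low regions were also dense on chromosomes 11 and 19 (30.5 and 24.1 per 10 Mb, against 16.2 over all chromosomes), and strong ones on chromosomes 11 and 8 (6.85 and 6.07, against 4.31).

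Repeated tags were somewhat more frequent in the members than in the libraries. Of the Ldb1 tags in the regions, 34.99% repeated a position (34.6 to 35.4), against 33.0% on chromosomes 1 to 19. For Tal1 the shares were 23.8% and 18.4%, and for Gata2 17.5% and 14.1%. IgG was lower in the regions, at 25.2% (23.9 to 26.6) against 30.1%. In strong regions 44.6% of Ldb1 and 39.8% of Tal1 tags were repeats. Dense sites reuse positions, also by chance, so counting positions once lowers dense counts more than sparse ones.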

How the data were processed

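Chromatin immunoprecipitation libraries of Ldb1, Tal1, Gata2 and control IgG, 1 each, were analysed from files of aligned tags (chromosome, start, end, strand), deposited without a header or normalization and with repeated tags kept. Per the submitters' processing notes, tags are placed on mm8; which aligner was used is not given in the sources used here. Deposited score values are 0 for Ldb1 and IgG and a whole number for Tal1 and Gata2, and the score was not used. The authors' files mark each tag's mismatches by a class (Ldb1, IgG) or a match descriptor (Tal1, Gata2).

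One tag was kept per chromosome, 5′ end and strand, ends were moved 54 bp along the strand and counted in 500 bp bins from position 0. Means are over bins with a tag. Low and strong Ldb1 classes had the same other limits. The best bin of a region is that with most tags of the 3 factors. Displacement is the median reverse minus forward 5′ end, with at least 3 tags per strand. Intervals are exact (Clopper-Pearson for shares, Poisson for densities, conditional binomial for ratios of counts, order statistics for medians). Regions were named by rule: 5 each with most Tal1, most Gata2, the largest lowest-of-3 enrichment and most bins, the 3 closest inside the limits and the 3 runs with most regions; ties went to more tags, then by position. Python 3.11.15, numpy 2.4.6, scipy 1.17.1 and pandas 2.3.3 were used. The choice of bins, the summit search, the flank count and the ratio and Poisson intervals were tested on simple simulated data with independent bins. The other steps were not tested in this way. Members, classes and the rule for naming were chosen with earlier results of these data known. Alternatives were repeated tags, bin origin, shift, IgG limits, mismatches and the Ldb1 range.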

Additional observations from a re-analysis of the deposited data

Results flagged for a closer look

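Chromosome X lay outside the rule. In its 63 bins with at least 14 Tal1 and 11 Gata2 tags, chosen without regard to Ldb1 or IgG, Ldb1 density was 19.02 times the chromosome X mean (17.8 to 20.3). IgG density in the same bins was 3.80 times its mean (3.30 to 4.36), against 1.28 times in the members, whose IgG count was limited. By all 4 limits only 20 regions of chromosome X would be members.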

How the results depend on the processing

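With 1 library per antibody no library could be left out, and no paired analysis was possible because each antibody has a single library. The median of 16 Gata2 tags per bin changed by no more than its interval under all 8 alternatives, 1 of which, leaving out mismatch-rich regions, was chosen after seeing the data. All 8 kept the limit of at least 11 Gata2 tags, which bounds this median from below, so its stability says little. The number of regions was 2815, and 1814 with Ldb1 at 10 to 17 and 1818 with at least 1 IgG tag. It was 2129 with tags without a mismatch and 3976 with repeated tags, and 2795 to 3015 under the other alternatives. The Ldb1, Tal1 and Gata2 flank densities stayed above 1. With Ldb1 at 10 to 17 they were 1.64, 2.18 and 1.77 times the mean, with at least 1 IgG tag 1.56, 2.09 and 1.70, without an IgG limit 1.89, 2.36 and 1.97, and with tags without a mismatch 1.74, 2.21 and 1.80. Bins starting at position 250 gave 1.64 for Ldb1 and 1.73 for Gata2, and repeated tags gave 2.10 for Tal1 and 1.72 for Gata2. The median number of Tal1 tags was 27 with Ldb1 at 10 to 17, 24 with repeated tags and 28 without mismatches. The distance between Ldb1 and Tal1 summits was 66 bp with repeated tags and 43 bp without mismatches. The share touching a bin of at least 20 Ldb1 tags was 5.70% without an IgG limit and 9.31% with repeated tags. The share with a kept neighbour within 10 kb was 15.2% with Ldb1 at 10 to 17, 11.6% with at least 1 IgG tag, 19.6% with bins from position 250, 19.8% without an IgG limit, 25.5% with repeated tags and 16.3% without mismatches. The cause of these changes was not tested. The Ldb1 limit of 8 tags is close to what counting error can move by a few tags, which limits statements on single regions.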

Other observations

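By the limits used for chromosomes 1 to 19, chromosome X had 20 regions of moderate Ldb1, or 1.59 per 10 Mb of bins with a tag (0.972 to 2.46), against 13.1 per 10 Mb on chromosomes 1 to 19. The limits are fixed tag counts and were not adjusted to the mean tag density of chromosome X. Its part in this difference was not tested.

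A single member lay in a stretch dense in control tags. At chr11:3005001-3006000 the best bin held 19 Ldb1, 98 Tal1, 24 Gata2 and 1 IgG tags, while the 10 kb around it held 326 IgG tags, or 20.6 times the mean. Its Tal1 and Gata2 tags aligned without a mismatch in 96.3% of cases.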
